A study of Sus scrofa with 6 samples.

Results

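Tight junctions seal the space between neighbouring epithelial cells near their apical surface. Claudins form the strands of the junction and set which ions and small solutes pass, occludin and junctional adhesion molecules join them in the membrane, and the zonula occludens (ZO) proteins and cingulin link the strands to the actin cytoskeleton. In the small intestine these proteins hold back luminal bacteria and antigens, and claudin members differ in whether they tighten the paracellular path or open it. The 9 genes described here were claudins 1, 3, 4 and 7 (CLDN1, CLDN3, CLDN4 and CLDN7), occludin (OCLN), ZO-1 and ZO-3 (TJP1 and TJP3), junctional adhesion molecule A (F11R) and cingulin (CGN). They were picked by name from the 31908 Ensembl pig gene IDs of the deposited table: 7 bore the symbol itself, and CLDN7 and CGN, whose symbol was blank, were found by their description. All 9 were listed.

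The data came from IPEC-J2 cells, a non-transformed epithelial line from the jejunum of the newborn pig, used at passages 12 to 15. The control group (CON) was given PBS and the CDCA group was treated with 50 μM chenodeoxycholic acid, a primary bile acid, each for 24 h, with 3 libraries per group. The solvent of CDCA is not given in the sources used here, and the study calls the libraries of a group biological replicates. The labels do not say whether they came from separate cultures, so p-values measure the spread between these libraries. Levels are given in TPM, the share of a transcript among all transcripts, corrected for length and scaled to 1000000, and the listed transcripts of a gene were summed. The table holds TPM and not the reads behind each gene, so values carry no interval for counting error. The listed TPM summed to between 351770 and 366073 per library, where a full library sums to 1000000, so a gene's value can miss transcripts. A gene listed near 0 is therefore not shown to be silent: RHOA, a GTPase used by all cells, was listed at a mean of 0.015 TPM. In bulk RNA, fewer cells that express a gene and less RNA per cell cannot be told apart.

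In CDCA-treated cells CLDN4 was strongly upregulated, and CLDN1, CGN and TJP3 were downregulated. Mean TPM of CLDN4 was 3.59 times the CON level, whereas the ratios were 0.427 for CLDN1, 0.368 for CGN and 0.282 for TJP3. TJP1 was listed 1.17 times as high as in CON, a difference whose FDR rose above 0.05 under several settings. CLDN3, CLDN7, OCLN and F11R were listed at or near 0 TPM in both groups. Of the 9, 5 averaged 1 TPM or more across all 6 libraries, and limma compared these on log2(TPM + 1), within a fit of all 8708 genes that passed this filter, with Benjamini-Hochberg adjustment (FDR). A gene was called where its FDR was under 0.05 and its log2 fold change was over 1 in size. By this rule 1 of the 5 was called higher, against 3.51% of all tested genes, and 3 were called lower, against 3.9%. By the FDR alone, 2 were higher and 3 lower, where 29.3% of all tested genes were higher and 23.9% lower. The CON and CDCA libraries did not overlap for any of the 5, which was also so for 61.5% of all tested genes. TJP3 reached the filter through its CON level only, so the count of 5 is a description and not evidence about the family.

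**Figure D1:**
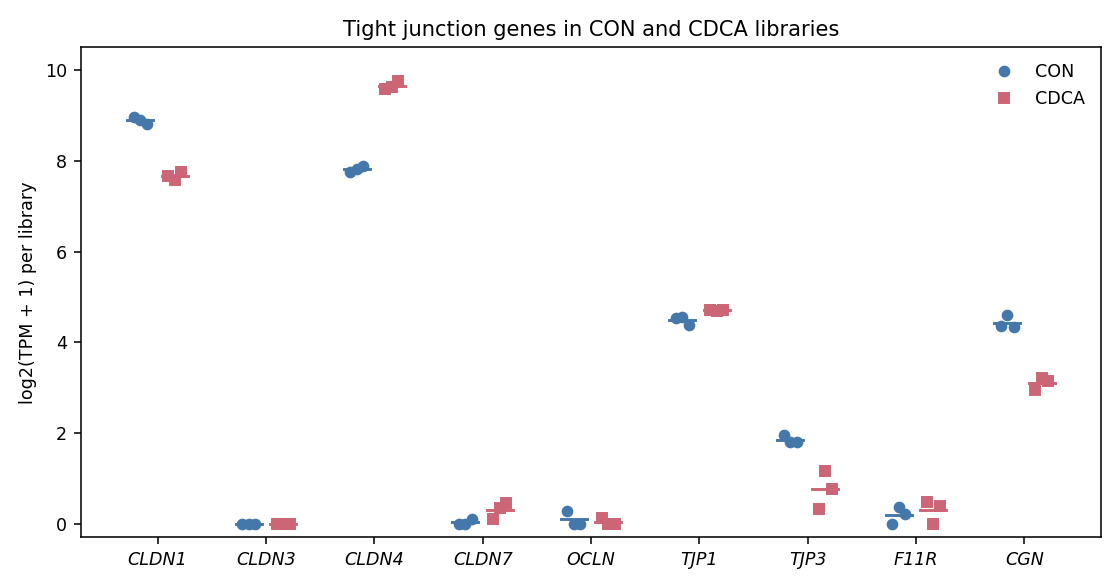
Level of each of the 9 tight junction genes, as log2(TPM + 1) on the vertical axis, in the 3 CON (circles) and 3 CDCA (squares) libraries, with a bar at the group mean. CLDN1 and CLDN4 change places as the most abundant gene, CGN and TJP3 sit lower in CDCA, TJP1 sits slightly higher, and CLDN3, CLDN7, OCLN and F11R lie at or near 0.

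Among the claudins, CLDN4 (ENSSSCG00000007718), which in many epithelia limits the passage of sodium, had 215, 223 and 237 TPM in the CON libraries, against 765, 792 and 863 TPM after CDCA. The lowest CDCA library was more than 3 times the highest CON library. Group levels were 225 ± 11.2 and 807 ± 50.5 TPM (SD, n = 3), and limma gave a log2 fold change of 1.84 with an SE of 0.058 (FDR 3.7e-06). CLDN1 (ENSSSCG00000040904), a sealing claudin needed for the barrier of the skin, had 502, 475 and 445 TPM in CON, against 202, 190 and 215 TPM after CDCA. Every CDCA library was below every CON library, with levels of 474 ± 28.4 and 202 ± 12.3 TPM (SD, n = 3). For CLDN1 limma gave a log2 fold change of -1.22 with an SE of 0.062 (FDR 1.8e-05). In CON the order of the 9 genes began with CLDN1, then CLDN4, and in CDCA with CLDN4, then CLDN1, and in neither group did the ranges of these genes overlap.

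The remaining claudins contributed little to the listed claudin RNA. CLDN3, another sealing claudin of the gut, has 1 listed transcript, at 0 TPM in all 6 libraries. CLDN7, found along the lateral membrane of intestinal cells, had 0, 0 and 0.07 TPM in CON, against 0.08, 0.27 and 0.37 TPM after CDCA. Its groups did not overlap, but its mean was under the filter, and a limma fit of every listed gene gave it an FDR of 0.21. Beside the 4 claudins of the set, 16 more claudin genes were listed. Of these only CLDN6 reached a mean of 1 TPM, with 2.23, 1.97 and 1.80 TPM in CON, against 1.19, 1.70 and 1.08 TPM after CDCA (limma FDR 0.056, not past the threshold). CLDN2, a pore-forming claudin of leaky epithelia, was listed at no more than 0.08 TPM in any library.

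Summed over the 20 listed claudins, the level was 721, 701 and 686 TPM in the CON libraries and 970, 986 and 1080.4 TPM in the CDCA libraries. CLDN1 made up 69.7%, 67.7% and 64.9% of this sum in CON and 20.9%, 19.3% and 19.9% in CDCA. CLDN4 made up 29.8%, 31.8% and 34.5% in CON and 78.9%, 80.3% and 79.9% in CDCA. The total was thus higher in every CDCA library and its main component differed between the groups. The ratio of CLDN4 to CLDN1 within a library, which does not depend on how that library was scaled, was 0.427, 0.470 and 0.532 in CON and 3.78, 4.16 and 4.02 in CDCA. The mean of its log2 rose from -1.08 ± 0.16 (SD, n = 3) to 1.99 ± 0.07 (SD, n = 3), a difference of 3.07, or 8.39-fold (p = 0.1 by an exact two-sided permutation, which is the lowest value 3 libraries against 3 can reach). The planned ratios of CLDN3 and CLDN7 to CLDN1 could not be computed, since both genes had libraries at 0.

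**Figure D2:**
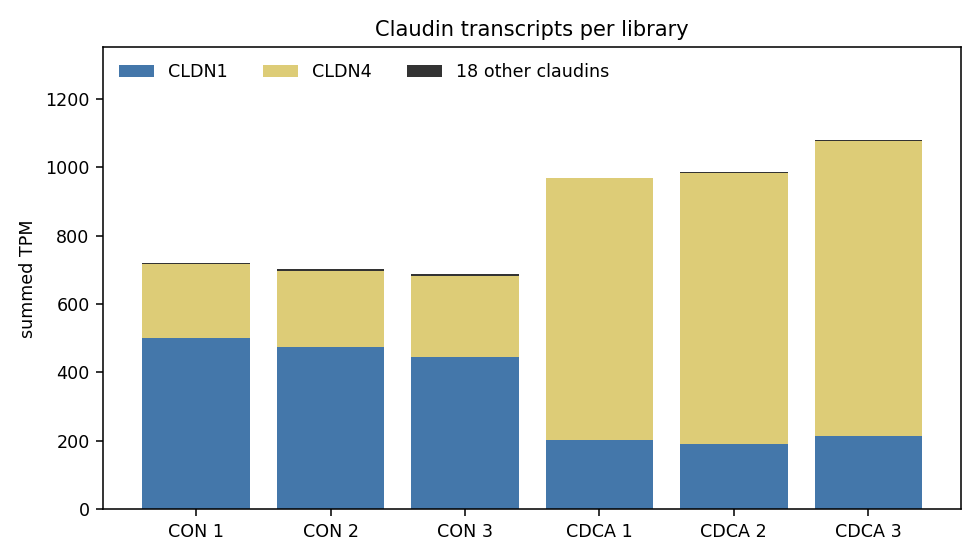
Summed TPM of the listed claudins in each of the 6 libraries (vertical axis, from 0), split into CLDN1, CLDN4 and the 18 other claudins. CLDN1 is the larger part in the CON libraries and CLDN4 in the CDCA libraries, and the other claudins are barely visible, at no more than 0.613% of the sum.

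OCLN (ENSSSCG00000021514), the first membrane protein of the tight junction to be described, has 2 listed transcripts. Its libraries had 0.22, 0 and 0 TPM in CON, against 0.09, 0 and 0 TPM after CDCA. F11R (ENSSSCG00000006369), which helps to recruit polarity proteins to the junction, had 0, 0.29 and 0.16 TPM in CON, against 0.39, 0 and 0.32 TPM after CDCA, over 4 listed transcripts. For both genes the groups overlapped, and no difference could be read from values this close to 0. MARVELD2 (tricellulin), a relative of OCLN at the corners where 3 cells meet, had 5.0, 1.61 and 2.15 TPM in CON, against 4.35, 4.65 and 3.25 TPM after CDCA, and the groups overlapped (limma FDR 0.25). It is named here after its values were seen.

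Of the ZO scaffolds, which bind the tails of claudins and occludin, TJP1 (ENSSSCG00000004854) had 22.2, 22.5 and 19.8 TPM in CON, against 25.4, 24.7 and 25.2 TPM after CDCA. The CDCA libraries lay close together and just above the CON libraries. The levels were 21.5 ± 1.51 and 25.1 ± 0.335 TPM (SD, n = 3), and the log2 fold change in limma was 0.22 with a 95% interval of 0.07 to 0.36 (FDR 0.022). The mtDNA-encoded mRNAs held between 13.8% and 15.03% of the listed TPM in CON and between 2.90% and 3.45% in CDCA, and when these were kept out of the totals limma gave TJP1 a log2 fold change of 0.07 (FDR 0.38). The FDR was 0.067 without CDCA replicate 1 and 0.061 without CDCA replicate 3. In CON the ranges of TJP1 and CGN overlapped, whereas in CDCA the lowest TJP1 library (24.7 TPM) was well above the highest CGN library (8.29 TPM).

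TJP3 (ENSSSCG00000013491) was much less abundant, with 2.87, 2.51 and 2.49 TPM in CON, against 0.26, 1.25 and 0.71 TPM after CDCA. The CDCA libraries were spread over a wide range below the CON libraries, with levels of 2.62 ± 0.214 and 0.740 ± 0.496 TPM (SD, n = 3). In limma TJP3 had a log2 fold change of -1.10 with a 95% interval of -1.61 to -0.59 (FDR 0.0051), but it was tested only because its CON level carried it past the filter, and with every listed gene in the fit its FDR was 0.049. On log2(TPM + 1) the change of so low a gene is understated, and with a pseudocount of 0.1 TPM it was -1.89. Without CDCA replicate 1, the lowest library, it was -0.88 and TJP3 was no longer called, although its FDR was still 0.0074.

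**Figure D3:**
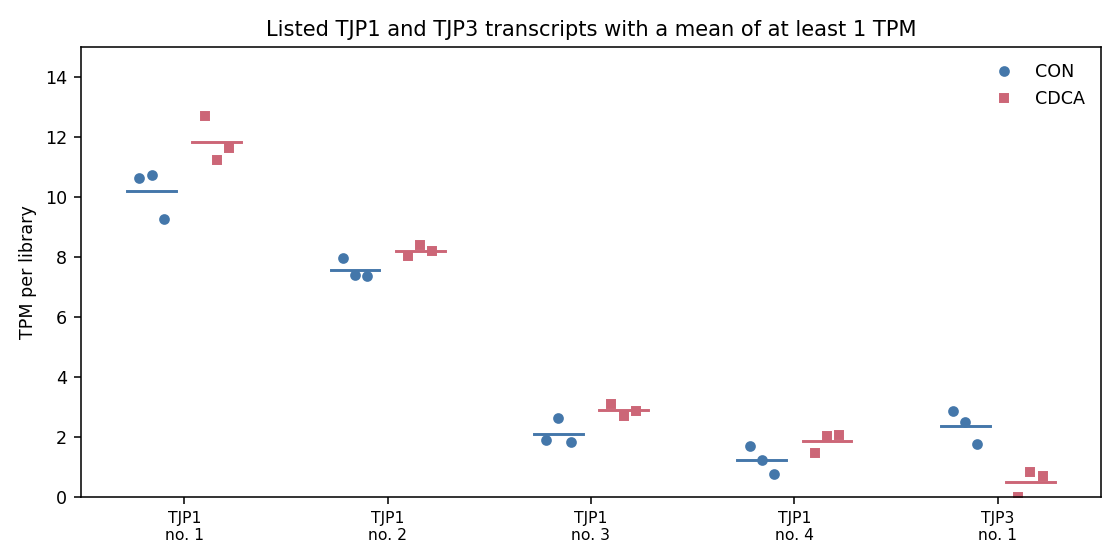
TPM per library (vertical axis, from 0) of each listed TJP1 or TJP3 transcript with a mean of at least 1 TPM, numbered by mean level within its gene, in CON (circles) and CDCA (squares), with a bar at the group mean. The 4 TJP1 transcripts have means between 1.24 and 11.9 TPM in either group, and TJP3 no. 1 is lower in CDCA.

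CGN (ENSSSCG00000006621), which binds ZO proteins, actomyosin and the RhoA activator ARHGEF2, had 19.6, 23.2 and 19.2 TPM in CON, against 6.70, 8.29 and 7.84 TPM after CDCA. All CDCA libraries were far below all CON libraries, with levels of 20.7 ± 2.17 and 7.61 ± 0.820 TPM (SD, n = 3). For CGN limma gave a log2 fold change of -1.33 with an SE of 0.10 (FDR 8.3e-05), and it stayed between -1.47 and -1.25 over all settings tried. CGNL1 (paracingulin), its closest relative, was listed below 1.5 TPM in every library and was not tested.

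**Figure D4:**
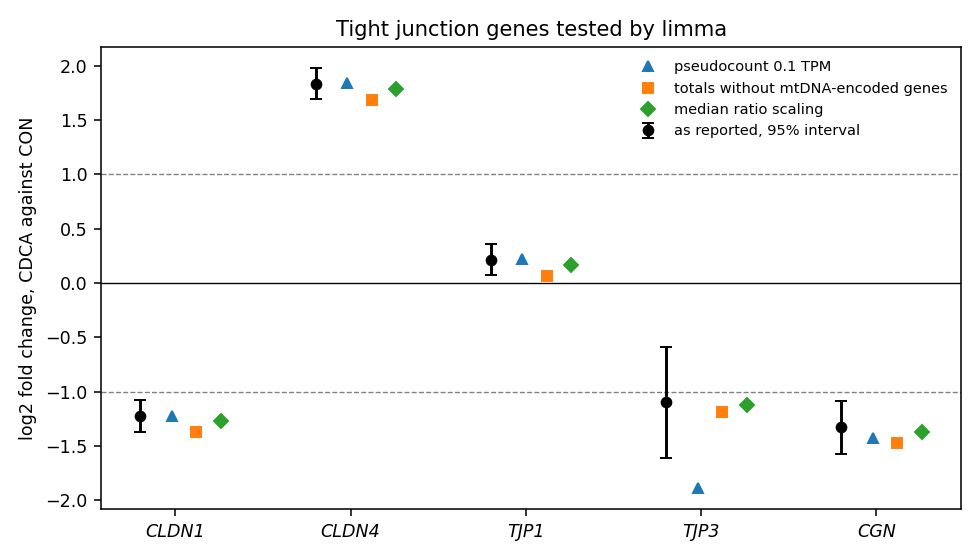
Log2 fold change (CDCA against CON, vertical axis) of the 5 tested genes: circles are the values as reported with their 95% interval, and triangles, squares and diamonds are the values with another pseudocount or scaling. Dashed lines mark the limit of 1 for a call. CLDN4 lies between 1.68 and 1.84, CLDN1 and CGN lie below -1 at each setting drawn, and TJP1 comes close to 0 when totals leave out mtDNA-encoded genes.

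The direction of the gene sums was then compared with that of the single listed transcripts. The table gives no transcript IDs, so transcripts are numbered by their mean level. The 9 genes had 27 listed transcripts, and 10 reached a mean of 1 TPM. In a limma fit of all 12205 transcripts that did so, 2 of the 10 were higher at an FDR under 0.05 (23.1% of all tested transcripts) and 3 were lower (18.7%). CLDN4 no. 2 and TJP3 no. 1 passed the filter only through the group where they are high, and of the 8 transcripts without them 1 was higher and 2 were lower. Nearly all CLDN4 RNA came from 1 transcript (224 ± 11.2 to 805 ± 50.4 TPM, SD, n = 3), and its second transcript, which passed the filter through CDCA only, was listed at 0.587 ± 0.112 and 1.62 ± 0.419 TPM (SD, n = 3). The main CLDN1 transcript fell from 472 ± 28.5 to 200.3 ± 11.4 TPM (SD, n = 3), while its minor transcript had 1.74, 3.29 and 1.81 TPM in CON, against 1.58, 1.48 and 3.37 TPM after CDCA. The groups overlapped for this minor transcript (log2 fold change -0.08, 95% interval -0.76 to 0.60, limma FDR 0.84). None of the 4 tested TJP1 transcripts passed the threshold by itself (limma FDR 0.097 to 0.27), though all 4 had higher means in CDCA. The transcripts of CLDN3, CLDN7, OCLN and F11R all had means under 1 TPM.

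Other genes of cell junctions were read from the same fit, in 7 lists written from general knowledge with earlier results of these data known. Together the lists had 121 listed genes, of which 69 were tested: 19 (27.5%) were higher and 18 (26.1%) lower at an FDR under 0.05, near the 29.3% and 23.9% of all tested genes, and 32 did not pass. Like TJP3, 5 of the 69 (BVES, PARD6G, EVPL, MYLK and ROCK2) had a mean of 1 TPM or more in CON or CDCA but not in both, so that they reached the filter through the group where they are high. Without them 19 were higher and 14 lower of 64. The median log2 fold change of all 69 was -0.02, against 0.05 for all tested genes. When mtDNA-encoded genes were kept out of the totals, the counts were 11 higher and 28 lower, so the split of the lists depends on the scaling. Over all tested genes that scaling changed the share of higher genes among those with an FDR under 0.05 from 55.0% to 38.6%, and their median log2 fold change to -0.08. In the same lists 1 gene of the 69 was called higher and 1 lower by the stricter rule, which called 3.51% of all tested genes higher and 3.9% lower.

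Of 10 tested membrane proteins of the tight junction beyond the set, 4 were higher (40.0%) and 4 lower (40.0%), and none was called. Over all tested genes 29.3% were higher and 23.9% lower. With so few genes tested in each list, the counts given here and below describe the lists and nothing more. ST14 (matriptase), a membrane protease that supports barrier formation, fell from 66.0 ± 4.29 to 34.1 ± 1.36 TPM (SD, n = 3; log2 fold change -0.93, limma FDR 4.5e-05). BVES, which passed the filter through CON only, was listed at 1.52 ± 0.483 and 0.547 ± 0.196 TPM, and TMEM47 rose from 1.22 ± 0.0231 to 2.40 ± 0.294 TPM (SD, n = 3). EPCAM, an adhesion protein that stabilises claudins, rose from 122 ± 3.74 to 160.2 ± 11.4 TPM (SD, n = 3; limma FDR 0.0015). Of 20 tested scaffold and polarity genes, 6 were higher (30.0%) and 5 lower (25.0%). YBX3 (ZONAB), a Y-box transcription factor that ZO-1 holds at the junction, rose from 70.6 ± 4.96 to 126 ± 5.28 TPM (SD, n = 3; log2 fold change 0.83, limma FDR 7.4e-05). PRKCZ, an atypical kinase of the PAR complex, rose from 11.7 ± 0.139 to 19.8 ± 0.974 TPM and PARD6G, a subunit of the same complex that passed the filter through CON only, was listed at 2.01 ± 0.118 and 0.703 ± 0.0961 TPM (SD, n = 3).

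Among 14 tested regulators, 4 were higher (28.6%) and 3 lower (21.4%), near the 29.3% and 23.9% of all tested genes. Of the lower ones, MYLK passed the filter through CON only. ARHGEF2 (GEF-H1), the RhoA activator that cingulin keeps inactive at the junction, had 17.5, 19.0 and 19.0 TPM in CON, against 52.4, 53.1 and 51.5 TPM after CDCA. It was called higher (log2 fold change 1.45, SE 0.048, limma FDR 4.3e-06), and its libraries differed between the groups in the opposite direction to those of CGN. WNK1, a kinase of ion transport, rose from 2.01 ± 0.390 to 4.26 ± 0.580 TPM, and MYL9, a myosin light chain, fell from 19.0 ± 3.03 to 10.6 ± 0.671 TPM (SD, n = 3). Of 11 tested adherens junction genes, 2 were higher (18.2%) and 3 lower (27.3%). AJUBA, a LIM protein at cadherin contacts, was called lower, from 25.4 ± 0.173 to 9.89 ± 0.415 TPM (SD, n = 3; log2 fold change -1.28, limma FDR 7.9e-06). VCL (vinculin) rose from 2.11 ± 0.271 to 4.68 ± 0.508 TPM and PLEKHA7 fell from 8.41 ± 0.332 to 5.66 ± 0.703 TPM (SD, n = 3).

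Of 9 tested desmosome genes, 3 were higher (33.3%) and 2 lower (22.2%). DSP (desmoplakin) rose from 29.0 ± 0.164 to 46.4 ± 3.06 TPM and PKP4 rose from 9.34 ± 0.624 to 12.5 ± 0.444 TPM (SD, n = 3). EVPL (envoplakin), which passed the filter through CON only, was listed at 1.89 ± 0.0208 and 0.707 ± 0.355 TPM (SD, n = 3). PKP1 and PPL are named after their values were seen. PKP1 rose from 1.17 ± 0.13 to 1.82 ± 0.192 TPM (SD, n = 3, limma FDR 0.027). PPL fell from 15.1 ± 0.631 to 11.7 ± 0.35 TPM (SD, n = 3, limma FDR 0.0024). Of 4 tested gap junction genes, 1 was lower (25.0%) and none higher. Over all tested genes 29.3% were higher and 23.9% lower.

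**Figure D5:**
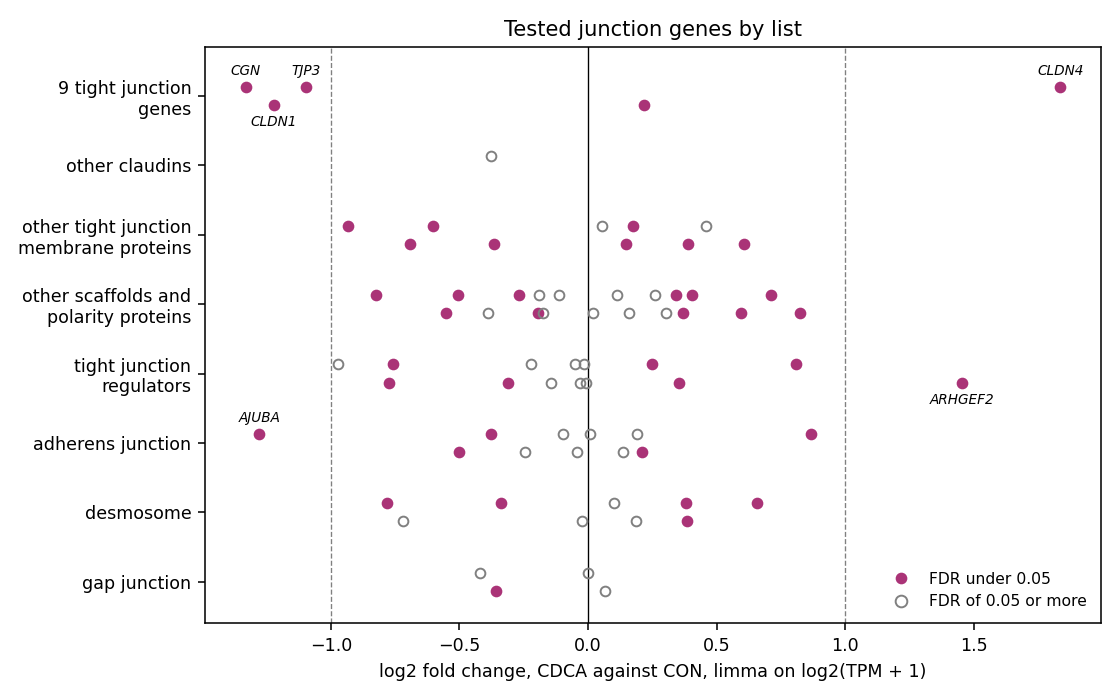
Log2 fold change (CDCA against CON, horizontal axis) of every tested gene in the set of 9 (top row, 5 tested) and in the 7 other junction lists, with filled points for an FDR under 0.05 and open points for the rest. Dashed lines mark a log2 fold change of 1 in either direction. Outside the top row, ARHGEF2 (1.45) and AJUBA (-1.28) are the only points past these lines, and the other filled points lie on both sides of 0.

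Transcription factors known to act on junction genes were read in the same way. Of 11 tested genes in the list of epithelial factors, which also holds the splicing regulator ESRP1, 3 were higher (27.3%) and 3 lower (27.3%). KLF4, which promotes differentiation in the gut, had 1.95, 7.47 and 8.56 TPM in CON, against 19.6, 15.5 and 16.1 TPM after CDCA (log2 fold change 1.54, SE 0.43, limma FDR 0.022), with CON replicate 1 well below its group. Without that library its log2 fold change was 1.00 (limma FDR 0.0018), just under the limit for a call, and without any 1 of the CDCA libraries its FDR was between 0.054 and 0.071. ELF3, an epithelial ETS factor, rose from 15.7 ± 1.62 to 30.2 ± 3.01 TPM, and ESRP1, which is a regulator of epithelial splicing, rose from 5.96 ± 0.394 to 12.1 ± 0.246 TPM (SD, n = 3). The 3 that were lower, named after their values were seen, were HNF4A, a nuclear receptor of gut and liver epithelium (5.97 ± 0.221 to 3.03 ± 0.647 TPM), OVOL2, which passed the filter through CON only (1.75 ± 0.272 to 0.700 ± 0.210 TPM), and KLF5, a factor of proliferating crypt cells (52.3 ± 1.23 to 40.7 ± 1.15 TPM; SD, n = 3). The limma FDR was 0.0022 for HNF4A and 0.00055 for KLF5. In the list of repressors of junction genes and mesenchymal genes, 7 were tested, 5 were higher and 1 was lower, where 29.3% of all tested genes were higher and 23.9% lower. With so few genes tested, these counts describe the list and nothing more. SNAI1 (Snail), a repressor of E-cadherin, claudin and occludin genes, rose from 4.64 ± 0.572 to 16.3 ± 1.57 TPM (SD, n = 3; log2 fold change 1.62, limma FDR 4.3e-05) and was called. ZEB2, a repressor of the same kind that passed the filter through CDCA only, was listed at 0.497 ± 0.0404 and 1.56 ± 0.147 TPM, and FN1 (fibronectin) rose from 560 ± 17.9 to 921 ± 19.0 TPM (SD, n = 3). The lower gene, also named after its values were seen, was SPARC, a matrix protein, which fell from 149 ± 4.65 to 105 ± 1.61 TPM (SD, n = 3; limma FDR 7.6e-05).

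The epithelial label was checked against marker genes. The 12 listed epithelial markers summed to 490.1 to 503.1 TPM in CON and 468.8 to 514.0 TPM in CDCA. KRT8 (226 ± 9.98 and 208 ± 17.4 TPM in CON and CDCA, SD, n = 3), KRT18 (65.6 ± 0.896 and 75.2 ± 3.91 TPM) and EPCAM were abundant. KRT20, CDX2, FABP1 and FABP2 were each listed at no more than 0.02 TPM in any library. SI was listed at 1.17 ± 0.463 and 1.18 ± 0.164 TPM (SD, n = 3). KRT20, CDX2, FABP1, FABP2 and SI are named after their values were seen. CDH1 (E-cadherin, at most 0.58 TPM in any library) and VIL1 (villin, at most 0.64 TPM) were listed near 0, and VIM (vimentin), usually a mesenchymal marker, was listed at 1986 ± 109 and 1919 ± 31.3 TPM (SD, n = 3; limma FDR 0.43). EPCAM was higher in CDCA, as given above, whereas KRT7 fell from 78.6 ± 1.32 to 48.5 ± 2.81 TPM (SD, n = 3). ANPEP, a brush border peptidase that passed the filter through CDCA only, was listed at 0.630 ± 0.128 and 2.04 ± 0.195 TPM (SD, n = 3). The 8 fibroblast markers summed to 1.40 to 1.97 TPM in CON and 1.16 to 1.27 TPM in CDCA, with LUM at 0 in all libraries. The 7 listed endothelial markers summed to 2.39 to 2.93 TPM in CON and 2.16 to 2.46 TPM in CDCA, with PECAM1 lower in CDCA (1.92 ± 0.242 to 1.22 ± 0.106 TPM, SD, n = 3; limma FDR 0.025, and 0.053 to 0.073 without CON replicate 2 or 3 or CDCA replicate 1 or 2). The 8 immune cell markers summed to 3.16 to 5.20 TPM in CON and 8.67 to 11.7 TPM in CDCA. CD68, a lysosomal glycoprotein abundant in macrophages, had 0, 0 and 0.26 TPM in CON, against 5.33, 4.75 and 4.44 TPM after CDCA, through which alone it passed the filter, while PTPRC (CD45), the general leukocyte marker, was at most 0.01 TPM in any library.

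Across the 6 libraries, the 5 tested genes whose log2(TPM + 1) followed that of CLDN4 most closely, by Pearson's r, were ENSSSCG00000051428, FIBIN, ARL6IP5, GDF15 and PCOLCE2 (r between 0.9990 and 0.9992). The 6 points fall into 2 groups, so a high r mainly says that a gene was higher in CDCA: 1273 of the 8707 other tested genes had an r over 0.95. GDF15, a secreted stress cytokine, rose from 4.61 ± 0.217 to 30.02 ± 1.36 TPM (SD, n = 3), and ARL6IP5 from 57.6 ± 1.19 to 101 ± 3.73 TPM (SD, n = 3).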

How the data were processed

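RNA from 6 IPEC-J2 libraries, 3 CON and 3 CDCA, was prepared with an Illumina TruSeq kit and sequenced. RSEM was the tool by which the authors made the deposited TPM table, which covers 63041 transcripts of 31908 Ensembl pig gene IDs, with no read counts and no transcript IDs. The submitters' processing notes name Bowtie 0.12.2 and mm10, a mouse build that cannot be that of pig gene IDs, so the build is treated as not given and no coordinates are printed. The authors' edgeR test needs counts and was not run.

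TPM were summed per gene ID. CDCA and CON were compared in R 4.3.3 with limma 3.58.1 (lmFit and trended eBayes). The input was log2(TPM + 1) of the 8708 genes that averaged 1 TPM or more, with Benjamini-Hochberg adjustment over all of them. Fold changes are on this scale. The steps were tested on simulated data. The 9 genes, the other lists and the thresholds were chosen with earlier results of these data known. Genes named were the 9, the 3 largest changes with an FDR under 0.05 of each list, CDH1, EPCAM, KRT8, KRT18, VIL1 and VIM, and the 5 genes most like the member with the largest change, apart from results that are not reported here. Others, such as RHOA, CLDN2, CLDN6, CGNL1, MARVELD2, LUM, PTPRC, HNF4A, OVOL2, KLF5 and SPARC, were picked after their values were seen. Symbols for the other lists came from a table of Ensembl IDs, which named 15029 IDs, then from the deposited table. Same-numbered libraries of the groups did not deviate together (r of -0.035, -0.092 and -0.051 over tested genes), so replicate numbers were not treated as pairs.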

Additional observations from a re-analysis of the deposited data

How the results depend on the processing

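CLDN4, CLDN1 and CGN kept their direction and an FDR under 0.05 under another pseudocount, no filter, 3 other scalings, the highest listed transcript, the replicate block and when any 1 library was dropped. TJP3, which passed the filter through CON only, did so as well, but with no filter its FDR was 0.049. Over those fits without a library, the log2 fold change was 1.79 to 1.88 for CLDN4, -1.27 to -1.18 for CLDN1, -1.30 to -0.88 for TJP3, -1.39 to -1.25 for CGN and 0.16 to 0.25 for TJP1. For TJP1 the FDR rose above 0.05 with no filter on low values (0.22, FDR 0.083), with totals without mtDNA-encoded genes (0.068, FDR 0.38), with the highest listed transcript (0.20, FDR 0.083), without CDCA replicate 1 (0.21) and without CDCA replicate 3 (0.21), and the number of the 9 genes higher at an FDR under 0.05 was then 1 in place of 2. Without filter more genes were tested (31908), and for the other settings the cause was not tested. Without a library, 1 to 2 genes of the set were higher and 3 lower.

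The labels do not say whether the replicate number pairs the samples, and it was not treated as a pair in the main fit. With the replicate block, 309 genes were called higher and 343 lower (306 and 340 without it), and TJP1 had an FDR of 0.046. Genes called higher numbered 509 (505 lower) with a pseudocount of 0.1 TPM and 523 (481 lower) with the listed TPM rescaled to 1000000; the rescaling put more genes past the filter (10947 tested). Without a library they were 311 to 324 higher and 338 to 359 lower, and with totals without mtDNA-encoded genes 221 higher and 462 lower. Under that last scaling the other junction genes with an FDR under 0.05 were 11 higher and 28 lower. The log2 difference of the ratio of CLDN4 to CLDN1 was 2.99 to 3.15 with each library left out. The 27 further genes that the naming rule picks kept their direction and an FDR under 0.05 in all 81 refits with another pseudocount or scaling, but not their side of the fold limit. With a pseudocount of 0.1 TPM, BVES (-1.33), PARD6G (-1.40), EVPL (-1.40), VCL (1.11), WNK1 (1.05), ZEB2 (1.48), ANPEP (1.56) and ESRP1 (1.01) also passed a log2 fold change of 1 in size, and ST14 (-1.08) did so with totals without mtDNA-encoded genes. With any 1 library dropped, an alternative added after seeing the data, these genes kept their direction in all 162 refits and an FDR under 0.05 in 151, and KLF4 and PECAM1 were among those that did not. The reads behind each gene are not in the table, which limits statements on genes near 0 TPM.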

Other observations

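In the order of protein-coding genes in RefSeq's Sscrofa11.1 annotation, used for names only, CLDN3 and CLDN4 are direct neighbours, between ABHD11 and METTL27. These genes, picked for their place, did not share a direction: ABHD11 fell from 67.5 ± 8.60 to 39.6 ± 2.73 TPM (SD, n = 3; limma log2 fold change -0.75, FDR 0.00084), CLDN3 was at 0 and METTL27 was listed at 0.477 ± 0.166 and 0.317 ± 0.302 TPM (SD, n = 3). CLDN1 lies between P3H2, which fell from 34.7 ± 1.31 to 29.8 ± 1.03 TPM (SD, n = 3; limma log2 fold change -0.21, FDR 0.01), and CLDN16, which was listed at 0.247 ± 0.116 and 0.107 ± 0.0929 TPM (SD, n = 3). Next to CGN, TUFT1 rose from 8.32 ± 0.714 to 20.4 ± 0.697 TPM (SD, n = 3; limma log2 fold change 1.20, FDR 3.4e-05) and POGZ was listed at 3.27 ± 0.554 and 4.13 ± 0.517 TPM (SD, n = 3; limma FDR 0.12). MARVELD2 and OCLN, relatives by sequence, are neighbours as well.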
